A study of Mus musculus with 4 samples.

Results

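The clustered protocadherins are cell-surface adhesion proteins encoded by 3 neighbouring gene arrays, alpha, beta and gamma, on mouse chromosome 18. Members were all genes whose symbol starts with Pcdha, Pcdhac, Pcdhb, Pcdhga, Pcdhgb or Pcdhgc followed by a digit. They were 58 of the 55471 gene identifiers (57 symbols, since Pcdha11 stands for 2 identifiers), with 14 in the alpha, 22 in the beta and 22 in the gamma cluster. On GRCm38 the alpha genes lie at chromosome 18, 36930184 to 37187661, the beta genes at 37264938 to 37524479 and the gamma genes at 37661793 to 37841873, all on the plus strand. In GENCODE vM21, 57 members are protein coding and 1, Pcdhgb8, is a polymorphic pseudogene.

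Droplet 3′ single-cell libraries were made from whole mouse lung at stage E18.5, 2 from wild type and 2 from Dnmt1 CKO embryos. The Dnmt1 CKO embryos carried Tbx4-rtTA and Tet-O-Cre together with Dnmt1-D/D, the deleted form of the gene. Tbx4-rtTA is an activator that needs doxycycline and is driven by Tbx4 sequences in lung mesenchyme, where it turns on Cre. Dnmt1 copies CpG methylation onto the new DNA strand after replication. The labels give no driver for the wild type embryos and do not say whether the libraries came from separate embryos, so p-values measure only the spread between these libraries, which may be technical.

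Each alpha and gamma transcript starts at its own promoter with a long variable exon, which encodes the extracellular part, and is spliced to constant exons that its cluster shares. Beta genes have no shared constant exons. In neurons most promoters are chosen at random, with CTCF, cohesin and promoter methylation taking part, and the proteins bind the same isoform on an opposing membrane, which serves self-avoidance of neurites. The C-type isoforms (Pcdhac1, Pcdhac2, Pcdhgc3, Pcdhgc4 and Pcdhgc5), which lie last in their clusters, are less subject to random choice.

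This structure bears on what a 3′ library can count. The last 300 exonic bases of all 14 alpha and all 22 gamma members also belonged to other genes, whereas this held for 1 of 22 beta members (Pcdhb21, which shares 455 bases with Pcdhb22). A tag in shared exons cannot be given to 1 isoform, so alpha and gamma counts come from a member's own bases (494 to 4606 in alpha, 1570 to 4614 in gamma, 2588 to 8695 in beta). The levels of the 3 clusters are therefore not compared with each other. Antisense genes overlap 13 members, and whether the counting used strand is not given in the sources used here. No member sequence is shown.

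Where 4 values are given, the first pair is wild type (replicates 1 and 2) and the second pair Dnmt1 CKO (replicates 1 and 2). The libraries held 48213065 to 56760219 UMIs, of which 4154, 7995, 5242 and 5218 came from members, and 5111, 4932, 4323 and 5675 cells were kept. From 8 to 16 cell barcodes were shared by each pair of libraries. Cells were clustered without the members and named from markers, and 2796, 2553, 2567 and 2792 cells were mesenchymal-like. Levels are CPM, the UMIs of a gene scaled to 1000000 UMIs of all cells of the class in that library. Dnmt1 in mesenchymal-like cells was 27.6, 26.0, 9.72 and 12.7 CPM, lower in both mutant libraries (log2 fold change −1.27, SE 0.21, adjusted p = 0.00580 by edgeR's quasi-likelihood test with Benjamini-Hochberg adjustment, used throughout). In the small mesothelial-like class it was 52.2, 48.5, 9.60 and 18.3 CPM (log2 fold change −1.69, SE 0.35, adjusted p = 0.0649). In endothelial-like cells it was 73.1, 66.6, 73.2 and 62.4 CPM, in epithelial-like cells 19.13, 17.9, 22.0 and 15.2 CPM and in immune-like cells 50.7, 51.4, 64.8 and 38.7 CPM. Summed over 12 general mesenchymal markers, mesenchymal-like cells held 17942 to 21971 CPM, endothelial-like cells 7426 to 11062 CPM, epithelial-like cells 1364 to 1899.9 CPM and immune-like cells 2204 to 2803 CPM. The part of mesenchymal RNA in the other classes' member counts was not tested.

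In wild type lung, the summed level of each cluster was higher in mesenchymal-like and endothelial-like cells than in epithelial-like and immune-like cells. In wild type replicates 1 and 2 the beta members of mesenchymal-like cells summed to 57.7 and 72.8 CPM, those of endothelial-like cells to 57.8 and 67.3 CPM and those of mesothelial-like cells to 37.8 and 28.8 CPM. The beta sum of epithelial-like cells was 2.34 and 2.24 CPM, and that of immune-like cells 1.19 and 1.19 CPM. For the gamma members, mesenchymal-like cells reached 89.7 and 159.6 CPM, endothelial-like cells 73.9 and 149 CPM, epithelial-like cells 21.5 and 35.9 CPM and immune-like cells 3.86 and 4.27 CPM. The alpha members summed to 1.98 and 2.58 CPM in mesenchymal-like and 3.78 and 5.65 CPM in endothelial-like cells, and had 1 and 0 UMIs in epithelial-like and none in immune-like cells. In such sums, fewer cells that express a gene and less RNA per cell cannot be told apart.

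**Figure D1:**
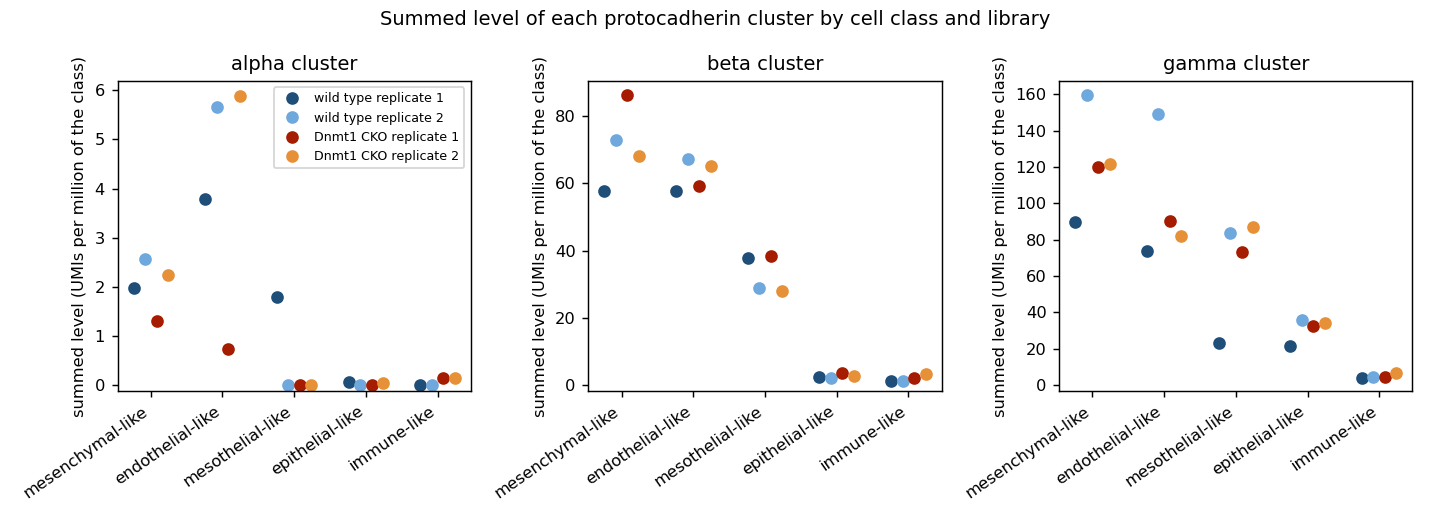
Summed level of the alpha, beta and gamma members in CPM (vertical axis, a separate scale in each panel) for 5 cell classes (horizontal axis), 1 point per library. Beta lies at 2.24 to 3.57 CPM in epithelial-like and 57.7 to 86.1 CPM in mesenchymal-like cells, and wild type replicate 2 is the highest gamma point in 3 of the 5 classes.

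The number of gamma UMIs for each beta UMI also varied between classes. Epithelial-like cells held 9.18, 16.03, 9.16 and 13.1 gamma UMIs for each beta UMI in the 4 libraries, against 1.55, 2.19, 1.39 and 1.79 in mesenchymal-like, 1.28, 2.22, 1.53 and 1.27 in endothelial-like and 3.25, 3.6, 2.07 and 1.96 in immune-like cells. The epithelial-like ratio was above each of these ratios in every library.

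Gene by gene, 41 members entered the test between wild type mesenchymal-like and epithelial-like cells, but 27 of them, all 18 beta members included, had too few UMIs in epithelial-like cells and entered through classes where they are higher, so their number says nothing on direction. Of the 14 members with enough counts in epithelial-like cells, all gamma, 13 were higher in mesenchymal-like cells at an adjusted p under 0.05 and none was lower, where 27.4% of all genes with enough counts there were called higher. Their median log2 difference was 1.83 (range 0.15 to 3.81), beside −0.09 over those genes. Pcdhgc3, a C-type gamma isoform, was 22.0 and 33.5 CPM in mesenchymal-like and 0.850 and 2.24 CPM in epithelial-like cells (log2 difference 3.81, SE 0.22, adjusted p = 6.75e-09). Pcdhb17 was 6.35 and 8.62 against 0.496 and 0.472 CPM, and Pcdhb14 was 6.0 and 8.08 against 0.142 and 0.177 CPM. Pcdhac2 had no UMI in the epithelial-like cells of any library. The member not called was Pcdhgc4.

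Pcdhgc4, the C-type isoform next to Pcdhgc3, was 6.45 and 10.3 CPM in wild type epithelial-like cells and 10.1 and 11.5 CPM in mesenchymal-like cells. The libraries of the 2 classes overlapped, and the log2 difference was 0.15, SE 0.21, adjusted p = 0.560 (95% interval −0.30 to 0.60). It made up 29.2% of the gamma UMIs of wild type epithelial-like cells and 8.53% of those of mesenchymal-like cells. Per kilobase of own sequence it was the highest gamma member in epithelial-like cells, at 2.41 CPM per kilobase, with Pcdhga12 next at 0.830. In mesenchymal-like cells Pcdhgc3 was the highest gamma member on that scale (8.21 CPM per kilobase, 22.1% of gamma UMIs), with Pcdhgc4 next (3.11).

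**Figure D2:**
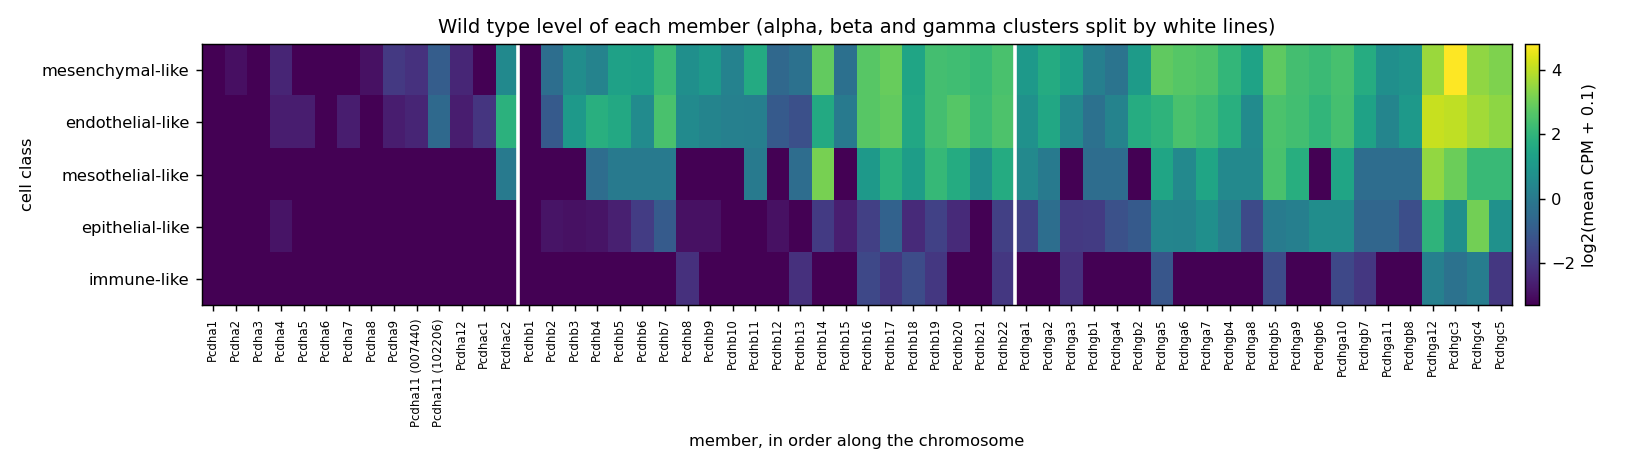
Mean level of each of the 58 members over the 2 wild type libraries, as log2(CPM + 0.1) in colour, for members in chromosomal order (horizontal axis) and 5 cell classes (vertical axis). The digits after both Pcdha11 labels are the ends of their identifiers; Pcdhac2 is the brightest alpha member in the mesenchymal-like and endothelial-like rows, and Pcdhgc4 the brightest member of the epithelial-like row.

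No member had enough counts in immune-like cells to be tested there, so no count of members is given against them. The gamma members with most UMIs in wild type immune-like cells were Pcdhga12 at 1.19 and 0.948 CPM, Pcdhgc4 at 1.48 and 0.474 CPM and Pcdhgc3 at 0.297 and 1.19 CPM.

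Mesenchymal-like and endothelial-like cells were closer to each other. Of the 29 members with enough counts in endothelial-like cells, 3 were called higher in mesenchymal-like and 2 in endothelial-like cells, where 25.1% and 33.0% of all genes with enough counts there were called in those directions. The 3 were Pcdhgc3 (log2 difference 0.83, SE 0.18, adjusted p = 0.00192), Pcdhb14 (log2 difference 1.24, SE 0.28, adjusted p = 0.00276) and Pcdhga5 (log2 difference 0.85, SE 0.30, adjusted p = 0.0322). Pcdhb14 was 6.0 and 8.08 CPM in mesenchymal-like and 2.36 and 3.58 CPM in endothelial-like cells. The 2 higher in endothelial-like cells were Pcdhb4 (log2 difference −1.40, SE 0.42, adjusted p = 0.0139) and Pcdhac2 (log2 difference −1.26, SE 0.39, adjusted p = 0.0175). Pcdhb4 was 0.874 and 1.39 CPM against 3.47 and 3.35 CPM, and Pcdhac2 1.28 and 1.44 against 2.99 and 4.27 CPM. Pcdhb17 and Pcdhb16 were among the 3 beta members, and Pcdhgc3, Pcdhga12 and Pcdhgc4 were the 3 gamma members, with the highest mean CPM in both classes.

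Pcdhac2 was uneven within both classes. Of its 22 and 29 UMIs in wild type mesenchyme, 22 and 28 lay in matrix-fibroblast-like cells. Myofibroblast-like cells held none in any library, where 3 UMIs would be 1.58 and 1.37 CPM in the wild type libraries, and matrix-fibroblast-like cells were at 1.85 and 2.02 CPM. In wild type endothelium, general-capillary-like cells were at 2.73 and 3.77 CPM and the 60 and 87 Car4-capillary-like cells at 13.6 and 20.2 CPM (4 and 11 UMIs). The beta members were spread more evenly, with 100.4 and 100.4 CPM in myofibroblast-like, 51.7 and 69.4 CPM in matrix-fibroblast-like, 44.1 and 62.3 CPM in pericyte-like and 87.4 and 96.6 CPM in lymphatic-like cells. The pericyte-like cells join a cluster led by Higd1b (47.5 and 66.4 CPM) and another led by Tuba3b and Top2a (39.9 and 53.8 CPM). The cluster led by Tuba3b had no mesenchymal marker among its leading genes, so its name is weak. These subclass levels were not tested.

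The wild type libraries differed from each other in the gamma cluster. In mesenchymal-like cells 21 of the 22 gamma members tested were higher in replicate 2 than in replicate 1, with a median ratio of 2.03. This held for 14 of 21 beta members (median ratio 1.36) and for 9320 of all 16147 genes tested (median ratio 1.07). The ratio of the summed gamma level was 1.78 in mesenchymal-like, 2.02 in endothelial-like, 1.67 in epithelial-like and 1.11 in immune-like cells. In mesenchymal-like cells both mutant libraries lay between the wild type libraries, at 119.9 and 122 CPM.

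Single cells held few member UMIs. At an equal depth of 3000 UMIs per cell, the expected share of mesenchymal-like cells with a member UMI was 35.2%, 48.4%, 44.6% and 41.5%. The share was 34.5%, 47.8%, 35.7% and 35.9% among endothelial-like cells and 6.85%, 10.6%, 10.6% and 10.2% among epithelial-like cells. In immune-like cells, the lowest of these classes, it was 1.48%, 1.10%, 1.74% and 2.24%. The part of free RNA in these shares was not tested. Median depths were 5942, 7648, 7250 and 5813 UMIs in mesenchymal-like and 5463, 8051, 8573 and 6911 UMIs in immune-like cells, and 188, 150, 143 and 301 mesenchymal-like and 104, 56, 69 and 113 immune-like cells were too shallow to enter. At full depth the shares were 55.9%, 76.3%, 71.9% and 61.2% in mesenchymal-like and 2.66%, 3.97%, 4.44% and 4.96% in immune-like cells.

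Mesenchymal-like cells with exactly 2 beta UMIs held 2 different beta isoforms in 89 of 114, 123 of 210, 177 of 245 and 111 of 167 cells. With exactly 2 gamma UMIs they held 2 different gamma isoforms in 204 of 241, 354 of 436, 310 of 334 and 258 of 298 cells. The most isoforms found in a mesenchymal-like cell were 8, 10, 12 and 8. In wild type mesenchymal-like cells the leading beta isoform, Pcdhb17, held 11.5% of beta UMIs, and the leading gamma isoform, Pcdhgc3, 22.1% of gamma UMIs. How often random draws from such levels would give 2 different isoforms was not computed. The counts of pairs therefore do not show whether cells mix isoforms freely. The part of doublets and of free RNA in these pairs was not tested.

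In Dnmt1 CKO mesenchyme the sum of each cluster overlapped with wild type, and 3 single isoforms were called. Of these, Pcdhgc3 alone had enough counts in both genotypes. The beta sum was 57.7, 72.8, 86.1 and 68.1 CPM, the gamma sum 89.7, 159.6, 119.9 and 122 CPM and the alpha sum 1.98, 2.58, 1.30 and 2.23 CPM. Of the 44 members with enough counts for the test, Pcdhb2 was called higher and Pcdhac2 and Pcdhgc3 lower, where 7.3% of the 16147 genes tested were called higher and 6.01% lower. The genotypes did not overlap in 21 of the 44 members, against 57.4% of all genes. The 3 calls are 6.82% of the members tested, a smaller share than that of all genes over both directions. Of the 44 members, 37 reached the count limit in both genotypes, 4 in wild type only, Pcdhac2 among them, and 3 in Dnmt1 CKO only, Pcdhb2 among them. Among the 37, 0 were called higher and 1, Pcdhgc3, lower. Pcdhac2 and Pcdhb2 entered the test only through the genotype where they are higher, so the count of 3 calls says nothing on direction. The members' median log2 fold change was 0.13 against 0.00 over all genes.

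Pcdhac2 (ENSMUSG00000102697.1, chromosome 18, 37143503 to 37187657), an alpha C-type isoform, fell in mesenchymal-like cells. It had 22, 29, 2 and 5 UMIs, or 1.28, 1.44, 0.1 and 0.294 CPM, and both mutant libraries were below both wild type libraries (log2 fold change −2.30, SE 0.49, adjusted p = 0.0159). Matrix-fibroblast-like cells, where nearly all of it lay, gave 1.85, 2.02, 0.159 and 0.355 CPM over 1907, 1752, 1699 and 1886 cells. Different clusters hold most of this class in the 2 genotypes: 2 clusters led by Mfap4 held 1278, 1209, 8 and 88 and 592, 510, 128 and 384 cells of the 4 libraries, and 2 with Saa3 among their leading genes 1, 1, 1038 and 1022 and 27, 27, 525 and 392. In the Mfap4 cluster with most mutant cells (led by Mfap4, Ogn and Tcf21), Pcdhac2 had 8, 8, 0 and 0 UMIs, where 3 UMIs would be 3.35 and 1.35 CPM in the mutant libraries and wild type was at 2.17 and 1.92 CPM. The call was lost without wild type replicate 1 (log2 fold change −2.35, adjusted p = 0.0563), wild type replicate 2 (−2.25, adjusted p = 0.104) or Dnmt1 CKO replicate 1 (−1.87, adjusted p = 0.116). In endothelial-like cells Pcdhac2 was 2.99, 4.27, 0.739 and 4.68 CPM. The low value there was Dnmt1 CKO replicate 1, whose general-capillary-like cells were low too, with 2.73, 3.77, 0.917 and 4.24 CPM in the 4 libraries (14, 26, 2 and 16 UMIs), and which held 8 Car4-capillary-like cells.

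Pcdhgc3 (ENSMUSG00000102918.1, chromosome 18, 37806364 to 37841873) also fell. It had 378, 675, 289 and 266 UMIs, or 22.0, 33.5, 14.5 and 15.6 CPM, with the mutant libraries close together and below both wild type libraries (log2 fold change −0.89, SE 0.22, adjusted p = 0.0289). Its level was 23.8, 36.1, 16.2 and 17.3 CPM in matrix-fibroblast-like cells, 13.7, 18.3, 10.3 and 9.92 CPM in myofibroblast-like cells and 21.9, 40.7, 8.14 and 8.07 CPM in adventitial-fibroblast-like cells, and the mutant libraries were the lower ones in each. In the matrix-fibroblast-like cluster led by Mfap4, Ogn and Tcf21 it was 25.5, 39.2, 23.5 and 17.6 CPM. The genotypes overlapped in other clusters. The cluster led by Mfap4, Tcf21 and Hsd11b1 had 23.1, 34.6, 39.8 and 24.8 CPM, from 2 and 13 UMIs in the mutant libraries. The cluster led by Hhip had 13.7, 18.3, 8.74 and 14.6 CPM, and that led by Tuba3b and Top2a 16.2, 21.2, 16.7 and 16.2 CPM. In the cluster led by Higd1b, without overlap, Pcdhgc3 was 24.6, 34.8, 7.20 and 17.1 CPM. Without wild type replicate 2, the library with the high gamma level, it fell by less and was not called (log2 fold change −0.61, adjusted p = 0.151). Without Dnmt1 CKO replicate 1 the value was −0.82 (adjusted p = 0.0974). Its C-type neighbours Pcdhgc4 (10.1, 11.5, 9.52 and 9.87 CPM, log2 fold change −0.17, SE 0.22) and Pcdhgc5 (7.81, 10.6, 8.36 and 7.40 CPM, log2 fold change −0.23, SE 0.24) were not called. The antisense gene BC037039, which overlaps Pcdhgc3 over 1559 bases, had 110, 102, 166 and 88 UMIs.

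Pcdhb2 (ENSMUSG00000051599.4, chromosome 18, 37294812 to 37297624), the second beta gene of the array, rose. It had 9, 16, 49 and 30 UMIs, or 0.524, 0.793, 2.45 and 1.76 CPM, and both mutant libraries were above both wild type libraries (log2 fold change 1.52, SE 0.40, adjusted p = 0.0382). With DESeq2 the adjusted p was 0.134 (log2 fold change 1.66). By edgeR it was 0.114, 0.0939 and 0.265 when wild type replicate 1, wild type replicate 2 or Dnmt1 CKO replicate 1 was left out. Pcdhb2 had 6, 14, 30 and 19 UMIs in matrix-fibroblast-like, 0, 1, 11 and 5 in myofibroblast-like and 5, 0, 0 and 0 in endothelial-like cells.

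Pcdhb11 (ENSMUSG00000051486.5, chromosome 18, 37421418 to 37425836), named after its values were seen because it lay nearest to the threshold, had 57, 56, 161 and 86 UMIs, or 3.32, 2.78, 8.06 and 5.05 CPM. The mutant libraries were again the higher ones (log2 fold change 1.06, SE 0.32, adjusted p = 0.0574). It passed the threshold with no filter on low counts (adjusted p = 0.00793) and without Dnmt1 CKO replicate 2 (adjusted p = 0.00677). It did not pass with DESeq2 (adjusted p = 0.0897), without wild type replicate 1 (adjusted p = 0.0688), without wild type replicate 2 (log2 fold change 0.90, adjusted p = 0.217) or without Dnmt1 CKO replicate 1 (log2 fold change 0.70, adjusted p = 0.413). It was 3.29, 2.95, 7.73 and 4.97 CPM in matrix-fibroblast-like and 5.26, 5.02, 16.2 and 5.74 CPM in myofibroblast-like cells. At an unadjusted p under 0.05 stood 6 members, against 28.1% of all genes: the 3 called, Pcdhb11, Pcdhb15 (0.408, 0.991, 1.75 and 1.53 CPM, log2 fold change 1.10, adjusted p = 0.142) and Pcdhb4 (0.874, 1.39, 0.401 and 0.587 CPM, log2 fold change −1.06, adjusted p = 0.153).

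**Figure D3:**
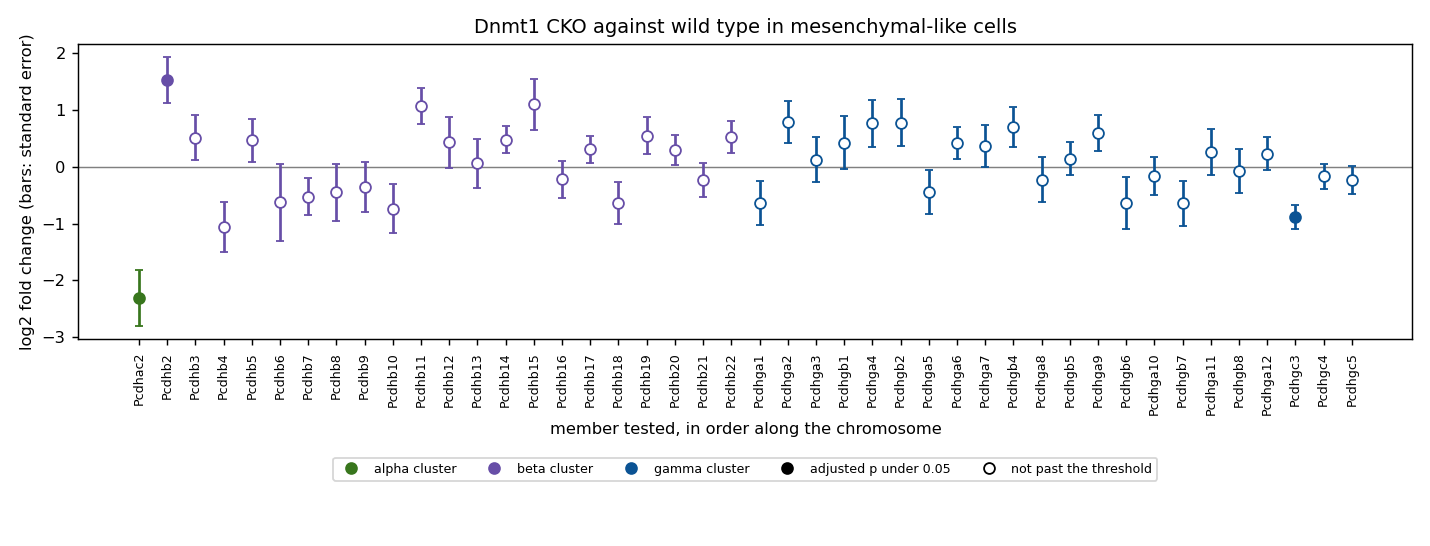
Log2 fold change of Dnmt1 CKO over wild type in mesenchymal-like cells (vertical axis; bars are the standard error) for the 44 members tested, in chromosomal order (horizontal axis). Filled points have an adjusted p under 0.05: Pcdhac2 at −2.30, Pcdhb2 at 1.52 and Pcdhgc3 at −0.89. Pcdhac2 entered the test through wild type alone and Pcdhb2 through Dnmt1 CKO alone.

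The remaining members had fold changes in both directions. Of the 21 beta members tested 12 were positive (median log2 fold change 0.30, range −1.06 to 1.52), and of the 22 gamma members 12 (median 0.13, range −0.89 to 0.79). The leading beta members were Pcdhb17 at 6.35, 8.62, 9.87 and 8.81 CPM, Pcdhb14 at 6.0, 8.08, 10.7 and 9.16 CPM and Pcdhb16 at 4.37, 8.28, 6.31 and 4.52 CPM. None of them was called; Pcdhb17 and Pcdhb14 were higher in both mutant libraries than in either wild type library, and Pcdhb16 overlapped. Pcdhga12, at 7.98, 15.8, 14.3 and 13.7 CPM, overlapped too.

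Of the 14 members not tested, 13 were alpha members and 1 was Pcdhb1. Pcdhb1 and Pcdha1 had no UMI in mesenchymal-like cells. Pcdha5 had 0, 0, 3 and 4 UMIs and Pcdha6 0, 0, 2 and 2. Set against 3 UMIs over both wild type libraries, the level in the mutant libraries together was 2.36-fold for Pcdha5 and 1.35-fold for Pcdha6. These ratios are not lower bounds, since the counting error of the few mutant UMIs is left out. Pcdha8 had 1, 0, 2 and 6 UMIs, Pcdha4 1, 2, 3 and 5 and Pcdha9 1, 5, 3 and 1. Pcdha11 (ENSMUSG00000102206.5), the alpha member next to Pcdhac2 in wild type level, had 7, 9, 3 and 10.

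No member was called in the other classes. In endothelial-like cells 29 members were tested and 0 had an unadjusted p under 0.05, against 3.94% of all genes. Of all genes 0.0157% were called. The smallest p belonged to Pcdhb21 (4.41, 4.62, 7.02 and 6.91 CPM, log2 fold change 0.61, SE 0.36, adjusted p = 0.999), Pcdhgb2 (log2 fold change −0.77, SE 0.53) and Pcdhgb5 (log2 fold change −0.75, SE 0.53). In epithelial-like cells 14 members, all gamma, were tested and 0 had an unadjusted p under 0.05, against 3.14% of all genes. Of all genes 0.0% were called. Pcdhga12 (3.83, 3.71, 6.03 and 5.02 CPM, log2 fold change 0.50, SE 0.30), Pcdhgc4 (6.45, 10.3, 10.5 and 12.1 CPM, log2 fold change 0.42, SE 0.27) and Pcdhgb6 (log2 fold change −0.65, SE 0.49) came first there. In mesothelial-like cells only Pcdhga12 was tested (log2 fold change 0.03, SE 0.43, adjusted p = 0.993, with 0.722% of all genes called), and in immune-like cells no member had enough counts. DESeq2 called 0 members in these classes as well.

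Whether a member's change differed between classes was tested as an interaction. It can be read only for members with enough counts in both classes. Against epithelial-like cells edgeR called 0 of 14 such members (3.49% of all genes with enough counts there). At an unadjusted p under 0.05 stood 1 of them, where 19.3% of all genes tested did. Against endothelial-like cells edgeR called 0 of 29 (6.65% of all genes with enough counts there). At an unadjusted p under 0.05 stood 11 of them, where 19.4% of all genes tested did. The 19.3% and 19.4% include genes short of counts in the other class, and the share without those genes was not computed. Against endothelial-like cells the smallest p belonged to Pcdhgb2 (difference of log2 fold changes 1.57, SE 0.49, adjusted p = 0.0987), Pcdhac2 (difference −1.65, SE 0.51, adjusted p = 0.0994) and Pcdhga12 (difference 0.71, SE 0.22, adjusted p = 0.101). Against epithelial-like cells it belonged to Pcdhgc4 (difference −0.60, SE 0.25, adjusted p = 0.241), and Pcdhgc3 was at −0.58, SE 0.39, adjusted p = 0.465. Pcdhb2 had too few UMIs in both other classes, and Pcdhac2 in epithelial-like cells, for such a comparison.

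Within the mutant mesenchyme, cells that expressed germline genes held more of several beta and gamma isoforms than cells that did not. Germline genes such as Dazl are kept silent by promoter methylation in somatic tissues. Mutant mesenchymal-like cells with 3 or more UMIs of a list of 19 genes known for expression in germ cells are called germline-positive (2102 and 1645 cells in Dnmt1 CKO replicates 1 and 2) and those with 0 germline-negative (254 and 796 cells). In wild type, 89 and 93 mesenchymal-like cells reached 3 UMIs. For 2 of the 19 this lung mesenchyme was not silent: Asz1 was 42.7, 33.5, 35.6 and 30.8 CPM and Brdt 6.23, 8.97, 10.6 and 13.3 CPM, and neither was called between genotypes. Without these 2, 0 and 4 wild type and 2086 and 1618 mutant cells reached 3 UMIs. Dnmt1 was 44.8 and 28.5 CPM in germline-negative and 5.62 and 5.35 CPM in germline-positive cells. Germline-positive cells were deeper, with medians of 7439 and 6166 UMIs against 6847 and 5308.

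Of the 27 members with enough counts in germline-negative cells, 9 were called higher in germline-positive cells and none lower, where 15.6% of all genes with enough counts there were called higher and 17.3% lower. They were 3 of 11 beta and 6 of 16 gamma members. Another 10 members entered the test through germline-positive cells alone, and over all 37 tested 12 were called higher (17.2% of all genes) and none lower (15.7%). The beta sum was 65.5 and 56.7 CPM in germline-negative and 88.7 and 73.7 CPM in germline-positive cells, and the gamma sum 79.1 and 98.2 against 127 and 132 CPM. Pcdhga9 had the smallest adjusted p, with 2.36 and 3.27 against 8.08 and 9.88 CPM (log2 fold change 1.56, SE 0.33, adjusted p = 2.88e-05). Next were Pcdhb22 with 4.13 and 3.27 against 9.19 and 8.88 CPM (log2 fold change 1.27, SE 0.32) and Pcdhgb5 with 2.36 and 4.67 against 8.55 and 8.88 CPM (log2 fold change 1.11, SE 0.31). Pcdhga7 (log2 fold change 1.10), Pcdhga6 (log2 fold change 0.97) and Pcdhga10 (log2 fold change 1.26) followed. All mesenchymal-like cells of wild type were at 3.44 and 6.74 CPM for Pcdhga9, 4.02 and 6.74 CPM for Pcdhb22 and 4.84 and 8.72 CPM for Pcdhgb5, so that wild type lay below both germline-positive values for Pcdhga9 and Pcdhb22 and overlapped them for Pcdhgb5.

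**Figure D4:**
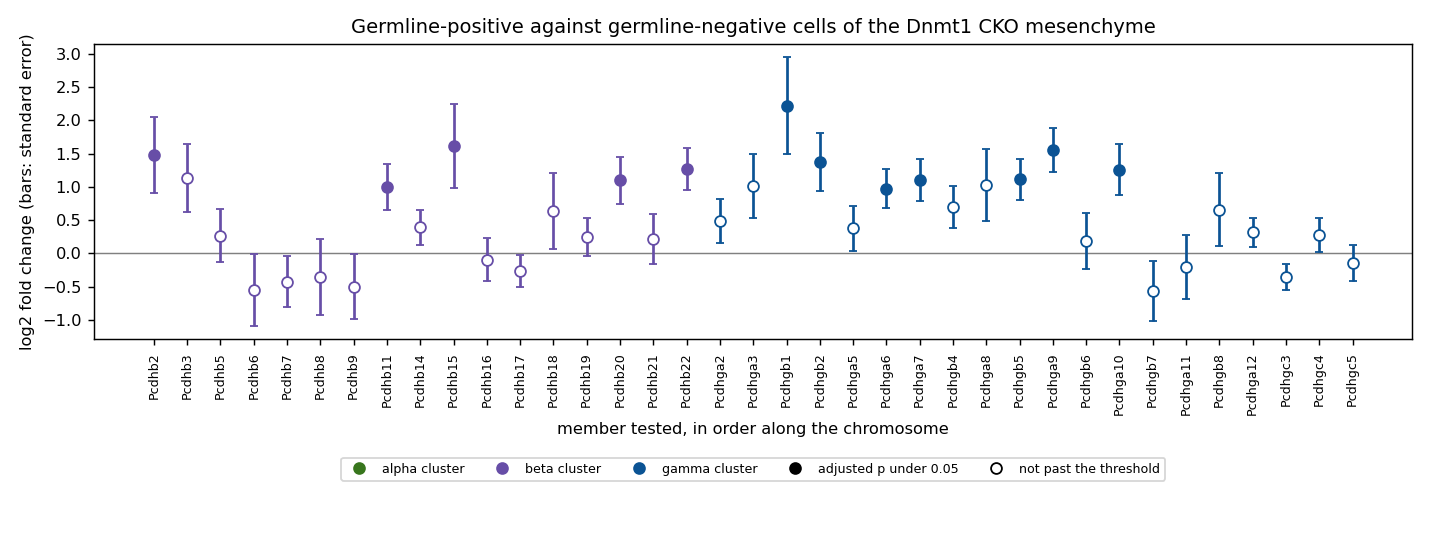
Log2 fold change of germline-positive over germline-negative Dnmt1 CKO mesenchymal-like cells (vertical axis; bars are the standard error) for the 37 members tested, in chromosomal order (horizontal axis). The 12 filled points, with an adjusted p under 0.05, lie above 0, and 3 of them (Pcdhb2, Pcdhb15 and Pcdhgb1) entered the test through germline-positive cells alone.

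This split rests on 2 libraries that each gave both kinds of cell, which leaves 1 residual degree of freedom, and without the library as a block 2 members were called in place of 12. The kinds of cell also differ in cluster: the mutant libraries had a myofibroblast-like cluster of 319 and 244 cells with Dazl among its leading genes and no wild type cell, whose beta sum was 140.1 and 76.1 CPM. Its part in the difference was not tested.

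Pcdhb2 was 1.77 and 0.233 CPM (3 and 1 UMIs) in germline-negative and 2.63 and 2.36 CPM in germline-positive cells. Pcdhb11 was 1.77 and 3.73 against 8.49 and 5.53 CPM (log2 fold change 1.00, SE 0.34, adjusted p = 0.0147), beside 3.32 and 2.78 CPM in wild type. Both of these had higher values in germline-positive cells of each library. Pcdhgc3 was 18.9 and 17.5 CPM in germline-negative and 13.9 and 14.4 CPM in germline-positive cells, all below the 22.0 and 33.5 CPM of wild type. Pcdhac2 had 1 and 0 UMIs in germline-negative cells, where 3 UMIs would be 1.77 and 0.700 CPM, and 1 and 3 UMIs in germline-positive cells. Set beside the 1.28 and 1.44 CPM of wild type, a lower level was not detectable at the depth of the germline-negative cells of replicate 1. Germline-negative mutant cells were not tested against wild type cells.

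**Figure D5:**
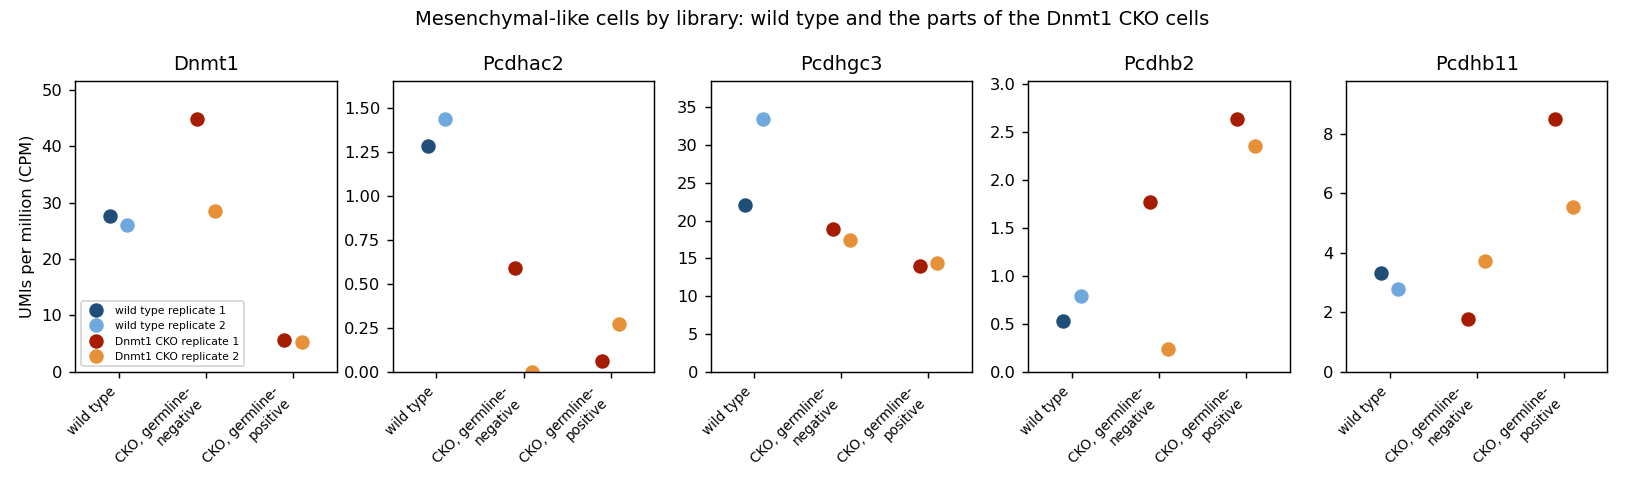
Level in CPM (vertical axis, from 0, a separate scale in each panel) of Dnmt1 and 4 members in mesenchymal-like cells of wild type and in the germline-negative and germline-positive mesenchymal-like cells of Dnmt1 CKO, 1 point per library. Dnmt1 is lowest in germline-positive cells (5.62 and 5.35 CPM), Pcdhgc3 lies below wild type in both kinds of mutant cell, the germline-negative points of Pcdhac2 rest on 1 and 0 UMIs, and Pcdhb11 lies above wild type in germline-positive cells.

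Of 6 other genes tested that lie within the span of the members, 2 were called higher and 1 lower in mesenchymal-like cells (7.3% and 6.01% of all genes), and they are named after their values were seen. The long non-coding RNA 3222401L13Rik (chromosome 18, 37655451 to 37661742, plus strand), which ends just before the start of Pcdhga1, had 33, 57, 687 and 521 UMIs, or 1.92, 2.82, 34.4 and 30.6 CPM, far higher in both mutant libraries (log2 fold change 3.70, SE 0.24, adjusted p = 1.86e-05). Pcdhga1 itself had 26, 48, 21 and 24 UMIs (log2 fold change −0.63, SE 0.39, adjusted p = 0.325). Taf7, a subunit of the general transcription factor TFIID on the minus strand between the beta and gamma arrays, was 44.7, 49.5, 92.4 and 82.4 CPM (log2 fold change 0.88, SE 0.18, adjusted p = 0.0127). Gm10544 (37159854 to 37178522, minus strand), which lies within the span of Pcdhac2, was 4.2, 4.16, 1.95 and 0.999 CPM (log2 fold change −1.44, SE 0.36, adjusted p = 0.0318), lower in both mutant libraries as Pcdhac2 was.

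The lists that follow are read against the same 7.3% and 6.01%. Of 20 tested genes listed as lying beside the arrays, 2 were called higher, Taf7, already counted above, and Dnd1, an RNA-binding protein of germ cells (1.11, 0.991, 7.76 and 5.81 CPM, log2 fold change 2.57, SE 0.32, adjusted p = 0.00126), and none lower, with a median log2 fold change of 0.04. The positions of listed genes outside the span of the members were not checked, Relch among them. Among 24 known or proposed regulators of the arrays, all tested, 1 was called higher and 2 lower, Dnmt1 itself among them, with a median log2 fold change of −0.05. Hells, a chromatin remodeller needed for DNA methylation, rose (14.4, 12.6, 58.5 and 31.8 CPM, log2 fold change 1.71, SE 0.28, adjusted p = 0.00506). Stag2, a cohesin subunit, fell (115, 171, 79.2 and 86.6 CPM, log2 fold change −0.79, SE 0.21, adjusted p = 0.0369). Uhrf1, which recruits Dnmt1 to replicated DNA, was 9.26, 6.10, 22.9 and 11.5 CPM (adjusted p = 0.0643). The mesenchymal-like cluster led by Tuba3b, Top2a and H1f5 held 97, 41, 227 and 170 cells of the 4 libraries. Its part in the Hells and Uhrf1 levels was not tested.

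Of 21 tested signalling partners 1 was called, Ptk2b, a kinase that binds protocadherin tails and is inhibited by them, which rose (0.117, 0.297, 1.00 and 1.06 CPM, log2 fold change 1.83, SE 0.48, adjusted p = 0.0380), and the median log2 fold change was 0.01. Of 10 tested non-clustered protocadherins, which are single genes outside the arrays, 2 were called, both lower: Pcdh20 (6.53, 7.63, 1.05 and 2.06 CPM, log2 fold change −2.14, SE 0.35, adjusted p = 0.00518) and Pcdh9 (7.11, 9.47, 4.26 and 1.88 CPM, log2 fold change −1.41, SE 0.36, adjusted p = 0.0349), with a median log2 fold change of −0.39. Of 9 tested classical and related cadherins 1 was called, Cdh4, which fell (19.3, 14.3, 4.56 and 9.16 CPM, log2 fold change −1.31, SE 0.34, adjusted p = 0.0345), with a median log2 fold change of −0.44.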

How the data were processed

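The authors deposited UMI counts for each gene and cell barcode. The submitters' processing notes name bcl2fastq (2.20), Cell Ranger (3.1.0), Seurat and GRCm38.p6. Barcodes with under 500 genes, over 20% mitochondrial UMIs or a Scrublet call (expected rate 6%) were left out. Cells were clustered with scanpy 1.11.5 (2000 variable genes without the members, 30 components, 15 neighbours, leidenalg 0.10.2, resolution 1.0). UMIs were summed per class and library and tested with edgeR 4.0.16 (R 4.3.3; quasi-likelihood F-test, filterByExpr, TMM, prior count 2), with the library as a block where sums came from the same library. P-values were Benjamini-Hochberg adjusted over all genes tested, and each SE was taken as the log2 fold change divided by the root of F. An exact permutation test of 2 against 2 cannot go below 0.333. Simulated counts for the mesenchymal comparison (16126 genes tested) gave back 78 of 100 genes changed 2-fold and 98 of 100 changed 4-fold, with 10 false calls. The changed genes were drawn only from genes above a mean count limit, with the same fixed dispersion for all genes. These rates therefore do not carry over to members with few UMIs, such as Pcdhac2.

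The naming rule took Dnmt1, called members (up to 6 outside the mesenchymal comparison), the 3 of smallest p where under 3 were called, the 3 with the highest wild type level per cluster and class, and up to 4 genes per list; not all were described. Counts of members that differ between classes or kinds of cell are given over members that reach the count limit in the class, or kind, with the lower level, a restriction chosen after seeing the data. Equal-depth shares are expected values for 3000 UMIs drawn from each cell. Members and lists were chosen with earlier results of these data known. Positions are from GENCODE vM21, which held all 58 identifiers. Alternatives were 2 other scalings (RLE, and library size alone), all genes with a UMI kept, DESeq2 1.42.0 in place of edgeR, the replicate number as block, each library left out, stricter cells (1000 genes, 10%), doublets kept, resolutions 0.5 and 2.0, and 2000 UMIs per cell. Floors are 3 UMIs and cover counting error only.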

Additional observations from a re-analysis of the deposited data

How the results depend on the processing

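In mesenchymal-like cells 1 member was called higher. This became 2 with no low-count filter, 0 with DESeq2, 3 with the replicate block (Pcdhb11 among them, adjusted p = 0.00959) and 0 to 2 as each library was left out. The 2 called lower ranged from 0 to 2 as each library was left out (0 if wild type replicate 2 or Dnmt1 CKO replicate 1 was dropped) and stayed 2 with the block, DESeq2 and no filter. Other scaling, stricter cells, doublets kept and both other resolutions gave 1 and 2. No source pairs libraries of the same number, and the deviations of both replicates numbered 1 correlated at 0.103 over 16147 genes. None of these alternatives reversed Pcdhac2, Pcdhgc3, Pcdhb2 or Pcdhb11. The wild type count against endothelial-like cells, with members short of counts there included, stayed at 6. Of all 17028 genes tested, 4600 were called higher and 4427 lower in mesenchymal-like cells. Since 12 of the 41 members tested were short of counts in endothelial-like cells, the 6 calls say nothing on direction. Against epithelial-like and immune-like cells most or all members tested were short of counts there, so no such count is given. The germline split gave 12 members, 2 without the library block, 10 with a limit of 1 UMI and 13 without Asz1 and Brdt, the last chosen after seeing the data. At 2000 UMIs per cell the mean share of cells with a member UMI was 31.1% in wild type and 31.7% in Dnmt1 CKO mesenchymal-like cells (41.8% and 43.1% at 3000) and 7.22% in Dnmt1 CKO epithelial-like cells (10.4%). Too few UMIs were counted to test 13 of the 14 alpha members.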
